A study of Mus musculus with 24 samples.

Results

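Fused H3K27ac peaks are stretches of acetylated chromatin that the list from doxycycline-treated cells gives as 1 peak and the list from untreated cells gives as separate peaks. The members were chosen by the positions of H3K27ac peaks in both lists: a treated peak was taken where it overlapped at least 2 untreated peaks by 1 bp or more, on assembled chromosomes. There were 2514 such peaks among 23341 treated peaks (10.8%), and they overlapped 5427 of the 28902 untreated peaks. Both groups were TgSpi1 erythroleukaemic cells of line #763, from mouse bone marrow, grown with erythropoietin (EPO). These cells overexpress the transcription factor SPI1 (PU.1) and carry a short hairpin RNA against Spi1 that doxycycline switches on. The treated cultures had the drug for 48 h, and the untreated cultures had none. No label names cells given the drug without the hairpin, so the drug, the hairpin and lower SPI1 cannot be told apart. The hairpin acts on the transcript, so the peaks do not measure the knockdown.

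Each H3K27ac list stands for replicates 1 and 2 together, and each H3K4me1 list for replicate 1. No value below has a replicate error, none was tested between conditions, and sequencing depth is unknown. The membership rule used both H3K27ac lists, so the number, width and gaps of the fused peaks are descriptions. Ranges in brackets after a percentage are 95% intervals by the exact method of Clopper and Pearson. They hold the counting error of peaks, gaps, promoters or genes and no other. Peaks of all kinds had a median width of 1353 bp treated and 1003 bp untreated, and covered 41.2 Mb treated and 41.5 Mb untreated. Of 8 erythroid markers, 8 had a treated peak and 6 an untreated peak within 1 kb of a gene end, while 0 of 6 myeloid markers had one in either list. In each list a peak lay at 3 of 4 megakaryocyte, 1 of 4 B cell, 1 of 4 T cell and 0 of 4 stromal markers. Spi1 had no fused peak within 5 kb of either end.

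Acetylation of histone H3 at lysine 27 is placed by the acetyltransferases p300 and CBP, is removed by histone deacetylases, and marks active promoters and enhancers. At an active promoter the nucleosome just upstream of the start site is usually missing, so that acetylated nucleosomes flank a dip. Enhancers often lie side by side in clusters, and H3K4me1 marks enhancers whether or not they are acetylated. In this leukaemia model, excess SPI1 holds cells at an immature erythroid stage, and erythroid factors such as GATA1 drive globin, haem and membrane genes when maturation resumes.

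The gaps that fusion closed lay within 200 bp of a gene start site at 426 places, mostly upstream of it, and 5 of these promoters are printed to show where the bridged gap lay. Each line gives the 250 bases before a start site, 5' to 3' along the gene, from the RefSeq promoter table (build GRCm38.p6, which is mm10), with the bases of the gap between untreated peaks in capitals. Ftl1 (chr7:45459887-45460136, minus strand) encodes the light chain of ferritin, the iron store. Klf6 (chr13:5861239-5861488, plus strand) encodes a Krüppel-like factor. Cdkn2d (chr9:21291210-21291459, minus strand) encodes the p19 inhibitor of CDK4 and CDK6, and Btg1 (chr10:96616751-96617000, plus strand) an antiproliferative protein. Apaf1 (chr10:91082744-91082993, minus strand) encodes the scaffold of the apoptosome.
Ftl1: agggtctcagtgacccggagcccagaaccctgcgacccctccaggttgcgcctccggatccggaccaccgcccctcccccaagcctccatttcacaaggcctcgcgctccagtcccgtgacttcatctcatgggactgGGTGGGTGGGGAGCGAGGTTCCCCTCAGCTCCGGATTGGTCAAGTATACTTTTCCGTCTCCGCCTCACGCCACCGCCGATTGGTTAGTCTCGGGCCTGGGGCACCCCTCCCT
Klf6: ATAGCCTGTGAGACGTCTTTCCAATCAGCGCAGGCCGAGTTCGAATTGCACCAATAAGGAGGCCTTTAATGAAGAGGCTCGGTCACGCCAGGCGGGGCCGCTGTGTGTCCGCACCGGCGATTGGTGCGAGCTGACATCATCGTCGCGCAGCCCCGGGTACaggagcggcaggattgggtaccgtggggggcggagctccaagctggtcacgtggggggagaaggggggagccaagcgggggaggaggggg
Cdkn2d: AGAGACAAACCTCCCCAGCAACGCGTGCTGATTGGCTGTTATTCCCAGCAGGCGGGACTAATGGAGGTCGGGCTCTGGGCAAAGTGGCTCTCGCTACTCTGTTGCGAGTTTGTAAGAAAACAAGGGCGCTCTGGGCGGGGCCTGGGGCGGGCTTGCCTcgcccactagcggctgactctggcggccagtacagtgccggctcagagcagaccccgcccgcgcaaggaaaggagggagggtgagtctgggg
Btg1: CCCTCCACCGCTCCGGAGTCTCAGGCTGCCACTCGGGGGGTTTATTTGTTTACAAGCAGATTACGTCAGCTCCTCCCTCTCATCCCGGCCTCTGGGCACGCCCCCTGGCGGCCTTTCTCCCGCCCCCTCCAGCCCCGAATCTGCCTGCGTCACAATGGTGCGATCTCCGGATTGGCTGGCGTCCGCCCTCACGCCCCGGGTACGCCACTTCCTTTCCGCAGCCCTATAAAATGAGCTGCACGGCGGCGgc
Apaf1: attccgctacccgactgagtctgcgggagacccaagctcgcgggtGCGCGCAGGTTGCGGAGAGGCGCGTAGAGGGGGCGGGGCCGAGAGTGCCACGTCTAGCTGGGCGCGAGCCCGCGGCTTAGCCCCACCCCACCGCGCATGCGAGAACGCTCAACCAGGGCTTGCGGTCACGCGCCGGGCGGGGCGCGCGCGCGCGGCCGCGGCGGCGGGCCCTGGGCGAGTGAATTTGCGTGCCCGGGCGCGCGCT
The letters CCAAT or their reverse complement ATTGG, the core of the site bound by NF-Y, occurred 4 times in the printed stretch of Klf6, 2 times in that of Ftl1, 1 time each in those of Cdkn2d and Btg1, and not in that of Apaf1. The gap was 197 bp at Ftl1, Klf6 and Cdkn2d, 347 bp at Btg1 and 297 bp at Apaf1. At Klf6 a treated peak of 3953 bp spanned an upstream untreated piece of 803 bp and a downstream one of 2403 bp. At Btg1 the treated peak had 1953 bp, against untreated pieces of 503 bp upstream and 1103 bp downstream. At Ftl1 it had 5653 bp, and the untreated pieces were 2153 bp upstream and 3103 bp downstream. No H3K4me1 peak of either list reached into the gap at Klf6, Cdkn2d, Btg1 or Apaf1, and at Ftl1 150 of its 197 bp were covered in each.

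For contrast, 2 promoters are printed whose short gap was present in both lists, with the untreated gap in capitals. E2f3 (chr13:29986064-29986313, minus strand) encodes an activating E2F factor of the cell cycle, and Mxd1 (chr6:86669160-86669409, minus strand) encodes a MAX-binding antagonist of MYC.
E2f3: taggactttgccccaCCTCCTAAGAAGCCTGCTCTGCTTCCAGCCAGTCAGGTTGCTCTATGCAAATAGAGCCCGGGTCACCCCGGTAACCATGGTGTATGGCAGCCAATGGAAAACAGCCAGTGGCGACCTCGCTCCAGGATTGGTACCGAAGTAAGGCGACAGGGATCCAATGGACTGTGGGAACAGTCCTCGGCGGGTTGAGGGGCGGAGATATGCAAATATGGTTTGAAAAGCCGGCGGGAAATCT
Mxd1: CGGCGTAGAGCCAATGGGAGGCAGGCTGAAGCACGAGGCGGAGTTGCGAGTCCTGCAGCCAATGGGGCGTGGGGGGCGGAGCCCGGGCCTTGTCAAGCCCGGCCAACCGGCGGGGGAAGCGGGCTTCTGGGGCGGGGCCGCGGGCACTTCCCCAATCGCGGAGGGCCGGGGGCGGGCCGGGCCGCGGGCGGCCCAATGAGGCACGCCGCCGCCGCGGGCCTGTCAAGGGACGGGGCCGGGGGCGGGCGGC
These stretches held 3 matches to CCAAT at E2f3 and 4 at Mxd1. At other list genes with such a gap the same stretch held from 0 to 5 matches, so these 2 do not stand for all. Their untreated gaps were 347 bp each, and the pieces on the 2 sides were met by different treated peaks.

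Most fused peaks joined a pair of neighbours across a short gap. The treated peak overlapped 2 untreated pieces in 2171 cases (86.4%), 3 in 274, 4 in 52, 5 in 15 and 6 in 2. The median bridged gap was 247 bp and the longest 4247 bp. No gap in either list was shorter than 197 bp, and 814 fused peaks (32.4%) bridged only gaps of that smallest length. The longest gap was at most 497 bp in 2217 (88.2%) and over 997 bp in 101 (4.02%). Fused peaks had a median width of 2703 bp, from 253 to 27303 bp, and 1-to-1 peaks, in which 1 treated and 1 untreated peak overlap each other alone, had 1553 bp. Within a fused peak the widest untreated piece made up a median of 68.3% of the summed pieces, so that fusion often added a narrow neighbour to a main peak. The narrowest piece was under 500 bp in 1204 fused peaks and under 200 bp in 257.

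Filled gaps made up the larger part of the added length. In 2200 fused peaks no untreated piece was also met by another treated peak, and these covered 7.48 Mb, against 6.00 Mb for their untreated pieces. Their bridged gaps held 0.897 Mb, and their outer edges moved outward by a net 0.585 Mb, with 1324 reaching farther than the span of their pieces, 780 less far and 96 equally far. In the other 314 (12.5%) a piece was shared with another treated peak, so that the same untreated peak was joined on one side and split on the other. With these counted in, the net shift of the outer edges was -0.08535 Mb, so its sign rests on the shared pieces. The reverse event, an untreated peak over at least 2 treated peaks, is called fragmented here and was found for 1153 of 28902 untreated peaks (3.99%). Fused peaks were 2.18 times as many as fragmented ones. The same rule gave 10020 of 101388 treated H3K4me1 peaks (9.88%) as fused and 4584 of 119362 untreated ones (3.84%) as fragmented, so an excess of fusion was present in both marks. Just inside the threshold, treated peaks over exactly 2 pieces overlapped the lesser one by a median of 403 bp, and by under 50 bp in 94 of 2171. Just outside it, 3749 treated peaks overlapped 1 untreated peak with another within 1 kb of their edge, at a median distance of 397 bp. With untreated peaks closer than 500 bp merged first, 297 fused peaks remained to be counted. With treated peaks merged in the same way, 189 fragmented peaks remained. Equal peak numbers in both lists gave 1669 fused and 1147 fragmented peaks.

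The share of gaps bridged fell with gap width in both directions. Of untreated gaps of 197 bp, 59.4% (57.0 to 61.7%) were bridged by a treated peak, and of treated gaps of that length 40.8% (37.4 to 44.3%) were bridged by an untreated one. At 247 bp the shares were 47.4% of untreated gaps (44.8 to 50.1%) and 35.3% of treated gaps (32.0 to 38.6%). At 547 to 997 bp they were 15.3% (13.4 to 17.3%) and 14.8% (12.7 to 17.2%), with intervals that overlap. These shares count gaps that lost a flanking peak as not bridged. Among gaps with both flanking peaks kept, 35.1% of untreated gaps (31.3 to 39.1%) and 26.8% of treated gaps (23.1 to 30.8%) of 547 to 997 bp were bridged, so that fusion exceeded fragmentation there too. Gaps of up to 497 bp numbered 3505 in the treated and 5825 in the untreated list.

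**Figure D1:**
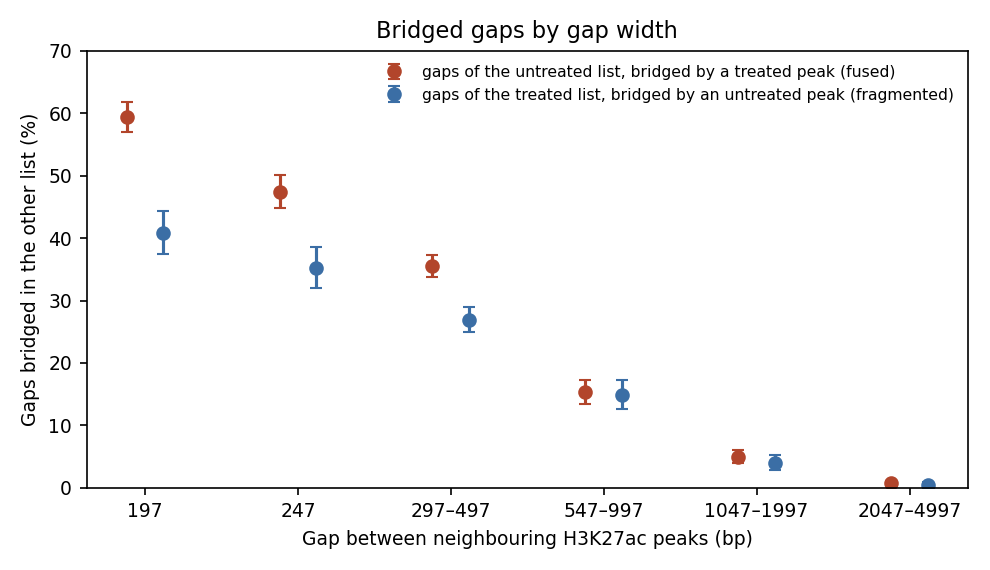
Percentage of gaps bridged in the other list (y axis) by gap width in bp (x axis), with exact 95% intervals as bars. Red points are gaps of the untreated list bridged by a treated peak, blue points gaps of the treated list bridged by an untreated peak. The red points lie above the blue ones up to 497 bp, at 59.4% and 40.8% for gaps of 197 bp, and the intervals overlap from 547 bp on.

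Position at start sites was not used by the rule. Of 2536 bridged gaps of up to 497 bp on chromosomes with a start-site table, 424 (16.7%, 15.3 to 18.2%) had their centre within 200 bp of an annotated start site. Among fragmented peaks, 37 of 1086 such gaps did (3.41%, 2.41 to 4.67%). The contrast was present in each class of gap width: at 197 bp the shares were 24.95% in fused and 7.48% in fragmented peaks, at 247 bp 18.8% and 1.42%, and at 297 to 497 bp 7.18% and 1.86%. Untreated gaps of up to 497 bp that stayed apart lay near a start site as often as bridged ones, at 17.0% (14.6 to 19.6%). By width their shares were 13.99% at 197 bp, 28.3% at 247 bp and 14.4% at 297 to 497 bp. The position was therefore not particular to bridged gaps. The bridged gaps sat upstream of the start, with a median centre 92 bp before it, 384 of 426 upstream and 42 downstream. The untreated piece on the gene side was the wider one in 314 of the 426 and the narrower one in 105, with a median of 1153 bp downstream and 778 bp upstream.

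**Figure D2:**
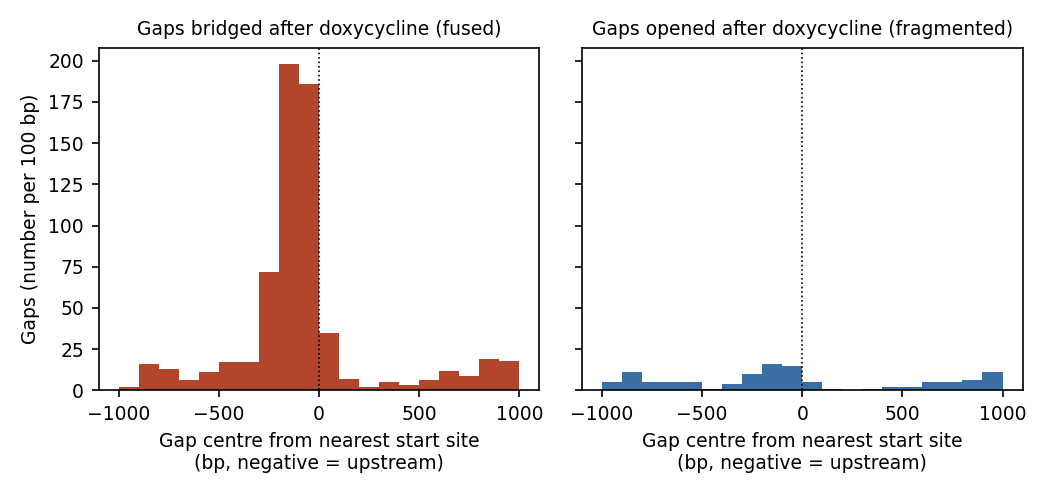
Number of gaps per 100 bp (y axis) by distance of the gap centre from the nearest start site in bp (x axis, negative upstream), for gaps bridged after doxycycline (red, left) and gaps opened after it (blue, right). The fused gaps peak just upstream of the start, with 198 between 200 and 100 bp before it and 186 in the last 100 bp, against 16 and 15 fragmented gaps.

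All short gaps of both lists, at start sites and elsewhere, were then followed into the opposite list. Within 200 bp of a start site lay 210 gaps of up to 497 bp in the treated list (6.20% of such gaps) and 642 in the untreated list (11.4%). Of the 642, 424 were bridged after doxycycline (66.0%, 62.2 to 69.7%), 153 stayed apart, 59 lost the peak on 1 side and 6 on both. Away from start sites 2112 of 4992 were bridged (42.3%, 40.9 to 43.7%), where loss of a flanking peak was common. Among gaps with both flanking peaks kept, the shares bridged were 73.5% at start sites (69.7 to 77.0%) and 73.9% elsewhere (72.2 to 75.5%). These near-equal totals joined classes that differed: by width the shares were 92.2% at start sites and 85.3% elsewhere for gaps of 197 bp, 70.5% and 80.3% at 247 bp, and 45.1% and 64.1% at 297 to 497 bp. In the opposite direction the 2 kinds parted: of treated gaps with both flanking peaks kept, 19.7% at start sites (14.2 to 26.1%) and 56.1% elsewhere (53.8 to 58.4%) were a single peak in untreated cells. Start-site gaps were therefore closed after doxycycline far more often than they were opened, 424 against 37, and gaps elsewhere 2112 against 1049.

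H3K4me1 showed a part of this pattern. Its short start-site gaps numbered 1050 in the treated and 860 in the untreated list, the reverse of the order for H3K27ac. Of the untreated ones with both flanking peaks kept, 40.2% were bridged (36.9 to 43.7%), against 70.9% elsewhere. Of the treated ones, 6.85% were bridged in the untreated list (5.39 to 8.56%), against 43.6% elsewhere. Closing exceeded opening at start sites for H3K4me1 too, 334 against 71, which is a lower ratio than for H3K27ac.

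The promoters with a bridged start-site gap were rich in CCAAT. Motifs were searched by letters on both strands of all 21263 promoter sequences of the RefSeq table, each with 250 bases before and 50 after a start. CCAAT was found in 63.1% of 498 promoters with a bridged gap (58.7 to 67.3%), 39.3% of 742 whose start lay in a fused peak away from a bridged gap (35.8 to 43.0%), 35.9% of 7394 in a 1-to-1 peak, and 38.2% of all promoters. At least 2 matches stood in 35.9% of the promoters with a bridged gap, against 13.3% of those in 1-to-1 peaks. The matches lay mostly in the gap itself, at 4.95 per kb of gap against 2.47 per kb of promoter outside it, and 237 of 426 gaps held one (55.6%). The gaps lay where CCAAT usually stands, since its median position was 95.5 bp before the start with a bridged gap, 86 bp in 1-to-1 peaks and 90 bp in all promoters. Promoters whose short gap stayed apart in treated cells held CCAAT more often still, in 84.8% of 171 (78.5 to 89.8%). Where a start-site gap was opened after doxycycline, CCAAT was in 48.8% of 43 promoters (33.3 to 64.5%). That interval holds both the share in 1-to-1 peaks and the share with a bridged gap, so it separates neither.

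Other letters set the bridged promoters less apart from those in 1-to-1 peaks. The GC-box, GGGCGG, the core of SP and KLF sites, was in 77.5% of promoters with a bridged gap (73.6 to 81.1%), in 72.5% of those with a gap kept apart, in 69.1% of those in 1-to-1 peaks and in 46.2% of all promoters. The GATA letters AGATAA, bound by GATA1, were in 5.02% with a bridged gap (3.27 to 7.32%), 5.63% in 1-to-1 peaks and 9.65% of all promoters. The purine-rich ETS core GAGGAA, which PU.1 recognises, was in 27.3%, 24.4% and 27.4% of the same sets. The other ETS core searched, CCGGAA, was in 34.9%, 34.0% and 18.7%. The CACC box CCACACCC was in 4.82% of promoters with a bridged gap, 3.68% of those in 1-to-1 peaks and 3.63% of all promoters. For the E-box CAGCTG these shares were 10.6%, 13.2% and 15.6%. The RUNX core TGTGGT was in 11.4% with a bridged gap, 11.3% in 1-to-1 peaks and 14.97% of all. The AP-1 site TGANTCA was in 3.41% with a bridged gap, 3.8% in 1-to-1 peaks and 6.99% of all. The TATA letters TATAAA were in 4.82%, 5.41% and 12.6% of these sets. Base composition was alike, with a median GC content of 60.7% with a bridged gap, 59.3% with a gap kept apart and 62.3% in 1-to-1 peaks. No genome sequence was used, so enhancer gaps were not searched.

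**Figure D3:**
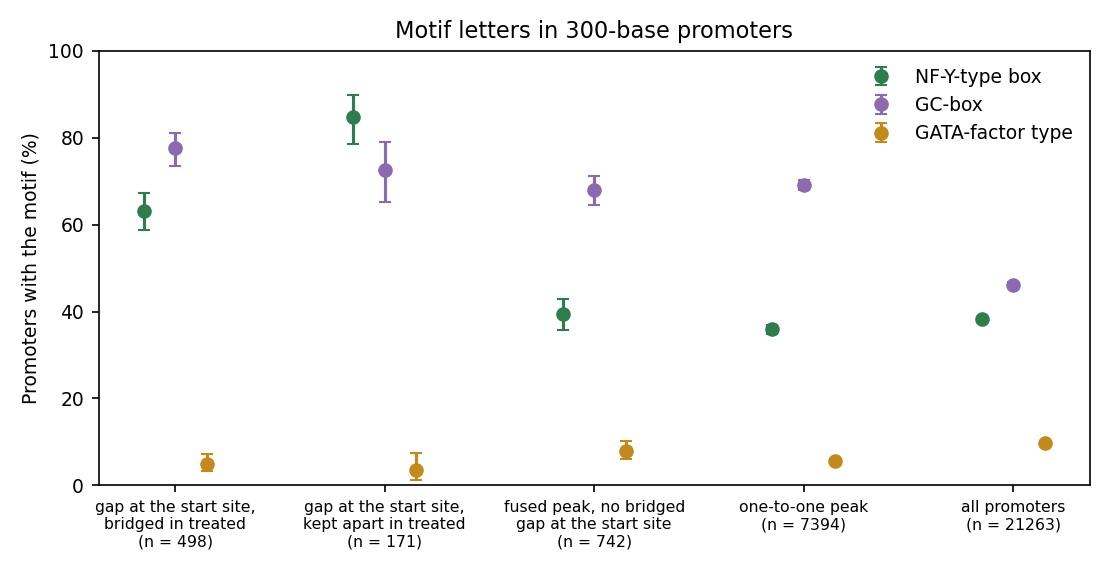
Percentage of 300-base promoters holding each motif (y axis) by set of promoters (x axis), with exact 95% intervals as bars; the NF-Y-type box is CCAAT. It was in 63.1% of promoters with a bridged gap, 84.8% of those with a gap kept apart and 35.9% of those in 1-to-1 peaks, while the GC-box and GATA points of these 3 sets lie closer together.

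Both globin enhancer regions held long joins, and that in Nprl3 had the longest bridged length of all. In Nprl3, whose introns hold the main enhancers of the alpha-globin genes, a treated peak of 12153 bp (chr11:32241449-32253601) took the place of untreated peaks of 853, 353 and 303 bp, separated by gaps of 947 and 4247 bp. The untreated pieces summed to 1509 bp, and H3K4me1 covered 12153 bp of the stretch treated and 10609 bp untreated. Upstream of the embryonic beta-globin gene Hbb-y, in the beta-globin locus control region, a treated peak of 15753 bp (chr7:103857199-103872951) spanned 5 untreated pieces of 53, 4803, 103, 1503 and 4903 bp. Its longest gap was 1597 bp, and H3K4me1 covered 15753 bp treated and 15506 bp untreated. A neighbouring treated peak of 3103 bp, nearer to Hbb-y, joined 2 pieces across 447 bp. At these loci the enhancer mark H3K4me1 already covered most of the joined stretch in untreated cells.

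Hemgn, which encodes the erythroid nuclear protein hemogen, had a treated peak of 11953 bp over an end of the gene (chr4:46400499-46412451), against untreated pieces of 3603 and 2753 bp. The gap of 4097 bp between them was the second longest of all bridged gaps. Kmt5c, a histone H4 lysine 20 methyltransferase gene, had a treated peak of 9853 bp (chr7:4740049-4749901), against pieces of 2553, 303 and 1903 bp with gaps of 297 and 3297 bp. In Gse1, which encodes a protein of a histone deacetylase co-repressor complex, a treated peak of 14003 bp (chr8:120365049-120379051) covered 5 pieces that summed to 6065 bp. These peaks gained more length from gaps than is typical of the set, whose median bridged length was 247 bp. A peak of 4603 bp lying 13529 bp from Sgk3, a kinase gene, bridged 3347 bp, and one of 4953 bp at Abcb9, a lysosomal peptide transporter gene, bridged 3147 bp.

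**Figure D4:**
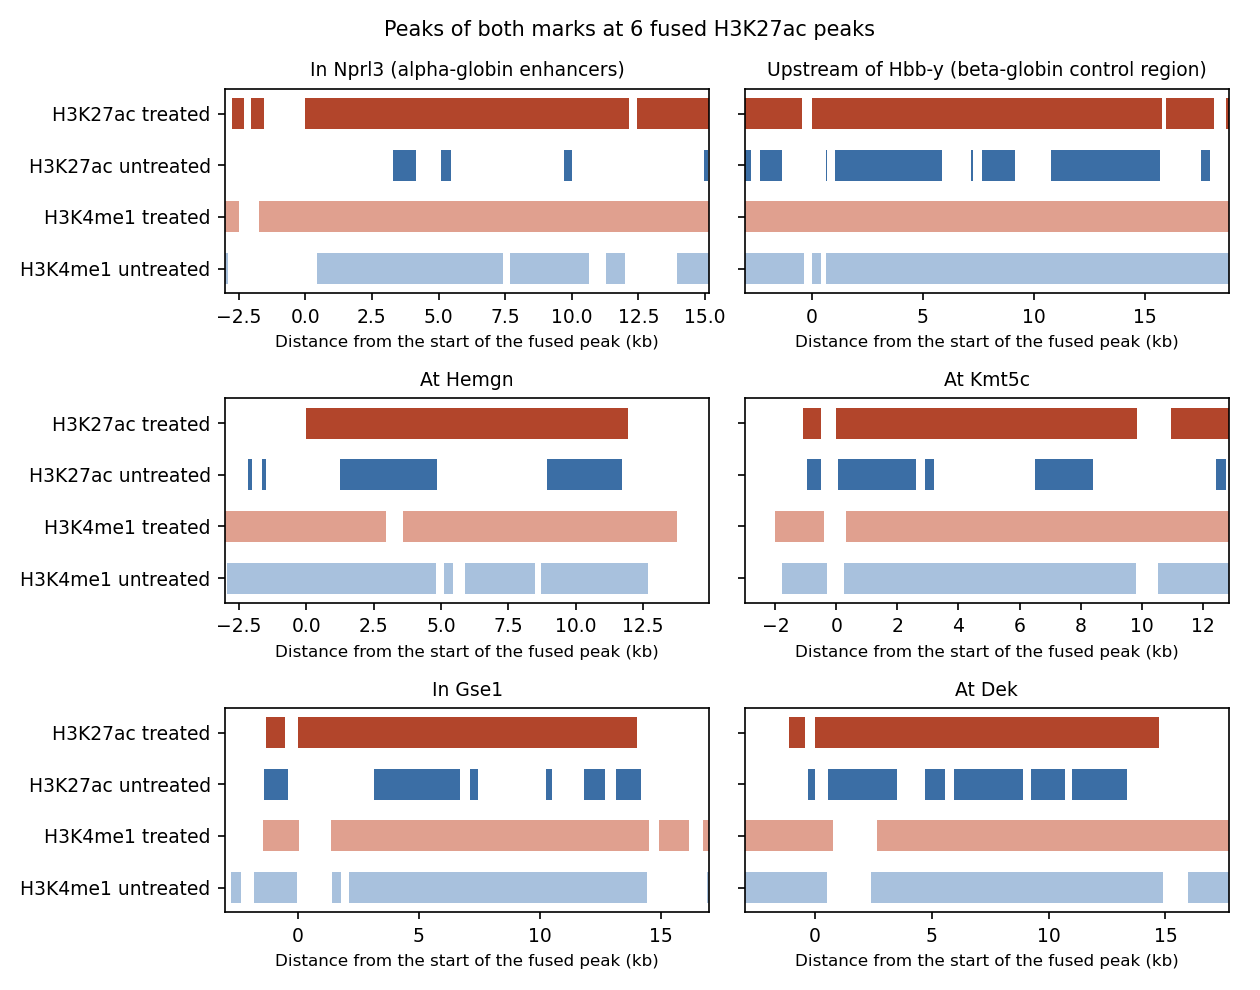
Peaks of both marks along 6 fused peaks, by distance from the start of the fused peak in kb (x axis). Rows from the top are H3K27ac treated, H3K27ac untreated, H3K4me1 treated and H3K4me1 untreated, and each bar is a peak. In Nprl3 1 treated H3K27ac peak of 12153 bp stands over untreated pieces of 853, 353 and 303 bp, while H3K4me1 covers most of the stretch in both lists.

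The widest peaks, and most of those with the most pieces, were long domains that were already largely acetylated. Dek, which encodes a chromatin architectural protein, had a treated peak of 14703 bp (chr13:47104099-47118801) over 6 untreated pieces summing to 10868 bp. The other peak with 6 pieces was shorter, with 5953 bp and 2085 bp of bridged gaps, and lay 40780 bp from Pofut2, an O-fucosyltransferase gene. The widest fused peak, 27303 bp (chr13:23737499-23764801), spanned 5 pieces at replication-dependent histone genes, among them H1f1, H1f2 and H3c1, and its pieces summed to 25815 bp. A further histone gene peak of 18453 bp, at H2ac7, H2bc6 and their neighbours, joined 3 pieces summing to 17409 bp. In these clusters fusion changed the number of peaks more than the acetylated length.

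Zfpm1, which encodes the GATA1 partner FOG1, had a treated peak of 24653 bp over pieces of 10553, 11153 and 4803 bp, a sum longer than the treated peak. Bcl11a, the repressor of fetal globin genes, had one of 18553 bp over pieces of 703 and 18003 bp. Cd82, a tetraspanin gene, had one of 20003 bp over 4 pieces summing to 16962 bp. The peak at Gpr146, a receptor gene, and its neighbour 3110082I17Rik had 15903 bp over 5 pieces summing to 11615 bp. At the median bridged length of 247 bp stood the peaks at Zfp217, a zinc finger gene, with 6753 bp over 5353 and 2253 bp, at the iron transporter gene Slc11a2, with 6853 bp over pieces summing to 6006 bp, and at Mrps18b and Ppp1r10, with 6903 bp over 6353 and 303 bp. Such a median peak differed from its pieces mainly by the closed gap.

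Erythroid genes often had a fused peak close by, though a peak counted for a gene by distance can lie outside it. Over all 21887 protein-coding genes, 1985 (9.07%) had a fused and 818 (3.74%) a fragmented peak within 5 kb of a gene end, and among the 11278 genes with any treated peak in that window the shares were 17.6% and 7.25%. Of 54 genes of red cell membrane, globin and haem synthesis, 18 had a fused peak (33.3%, 21.1 to 47.5%) and 5 a fragmented one (9.26%, 3.08 to 20.3%). Among the 52 of them with any treated peak the shares were 34.6% and 9.62%. Counted in this way, the fused share was higher in 4 other lists. It was 52.2% of 23 erythroid transcription factor genes, 50% of 6 T cell genes, 38.5% of 13 megakaryocyte genes and 36.8% of 38 cell cycle genes. Counted without regard to other treated peaks, the fused share of the 54 erythroid genes was 3.675 times that of all genes. Their fragmented share was 2.48 times that of all genes, with an interval that holds the share of all genes. Among genes with any treated peak the fused shares lay closer, at 34.6% and 17.6%. With untreated peaks within 500 bp merged first, 7.41% of these 54 genes had a fused peak, against 0.969% of all genes. That share rests on a handful of genes, and no interval was computed for it.

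The joined stretches at red cell surface genes were among the longer ones of this list. Rhd, a blood group antigen gene (chromosome 4), had a treated peak of 8103 bp, against untreated pieces of 2853 and 2603 bp separated by 2047 bp. Trim58, a ubiquitin ligase gene of late erythroblasts, had 4853 bp over pieces of 503, 3003 and 303 bp. Abcb10, a mitochondrial transporter gene linked to haem synthesis, had 7553 bp over 4 pieces that summed to 4862 bp. The water channel gene Aqp1 had 6703 bp over 3 pieces summing to 2759 bp, so the treated peak was more than the pieces and their gaps of 544 bp together. Erfe, the gene of the iron-regulating hormone erythroferrone, had 6153 bp over pieces of 703 and 1053 bp, and there H3K4me1 covered 6153 bp treated and 4003 bp untreated. Aqp1 and Erfe are cases in which the treated peak reached well beyond the outer untreated pieces.

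Other erythroid members closed a short gap, some in an already wide peak and some between narrow pieces. Fech, the last enzyme gene of haem synthesis, had 11703 bp over 4 pieces summing to 11162 bp, and Ppox, the gene of the enzyme before it, had 3153 bp over pieces summing to 2306 bp with the gap at its start site. The glycophorin C gene Gypc had 10553 bp, Slc25a38, a mitochondrial glycine carrier gene, 9103 bp, Rhag, the partner of the Rh antigens, 6003 bp, and Ftl1 5653 bp. Xk, the gene of a red cell surface antigen, had 3603 bp. The peak counted for Ermap, another antigen gene, lay over a different gene and had 2153 bp, against pieces of 853 and 1153 bp. Bpgm, the gene of the enzyme that makes 2,3-bisphosphoglycerate, had 1903 bp over pieces of 553 bp each. The peak counted for the adult beta-globin gene Hbb-bs lay outside it and had 1603 bp over pieces of 1303 and 103 bp. The gaps at these genes were 197 to 747 bp. At Ermap, Xk, Hbb-bs and Slc25a38 a fragmented peak lay in the same window, and at Slc25a38 the bridged gap itself lay outside it.

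Erythroid transcription factor genes had the highest share of fused peaks among the lists, with 12 of 23 (52.2%, 30.6 to 73.2%), but also 9 of 23 with a fragmented one (39.1%, 19.7 to 61.5%). Both intervals are wide and overlap. Gata1, the main erythroid GATA factor gene, had a treated peak of 9303 bp over pieces that summed to 10556 bp, with a gap of 347 bp. It reached the second piece, of 103 bp, by 3 bp alone, so its membership rests on that overlap. Nfe2, the globin activator gene, had 10303 bp over pieces summing to 11356 bp. The peak counted for Klf1, the beta-globin activator gene, lay outside it and had 2653 bp over pieces summing to 3306 bp. In these 3 the fused peak was shorter than its pieces together. At Gata1, Klf1, Klf3 and Gfi1b a fragmented peak lay in the same window, and a piece of the fused peak was also met by another treated peak. Runx1 had 9653 bp over 9109 bp of pieces, and the co-repressor gene Cbfa2t3 12403 bp over 12159 bp. Klf3, the gene of a repressor related to KLF1, had 5353 bp over 5556 bp, and Klf6 3953 bp over 3206 bp. Nfe2l1 had a narrow fused peak of 1103 bp over 756 bp, and a shorter Zfpm1 peak near a gene end had 1803 bp over 1956 bp. Bach1, Bcl11a and Gfi1b had fused peaks whose gap lay outside the 5 kb window, of 6803, 10703 and 12303 bp.

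Of 39 cell cycle and antiproliferative genes, 14 had a fused peak (35.9%, 21.2 to 52.8%) and 5 a fragmented one (12.8%, 4.30 to 27.4%). Genes that restrain division were among them. Btg2, an antiproliferative gene, had a treated peak of 4203 bp, against untreated pieces of 203 and 453 bp across a gap of 447 bp. Its relatives Tob1, with 3603 bp over 2956 bp of pieces, Btg1, with 1953 bp over 1606 bp, and Tob2, with 5553 bp over 5656 bp, had fused peaks too, though that of Tob2 met its outer piece by 3 bp. The inhibitor genes Cdkn2d and Cdkn2a had 6153 bp over 5409 bp and 5253 bp over 4606 bp, and the pocket protein gene Rb1 6353 bp over 5156 bp. E2f4, a repressor E2F gene that acts with pocket proteins, had 3753 bp. Btg2 was the member whose treated peak exceeded its pieces most.

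Genes that drive division were in the list as well. Cdk4, a G1 kinase gene, had fused peaks of 2553 bp and 3003 bp, and Cdk1, the mitotic kinase gene, one of 2553 bp. Ccnb1, the cyclin B1 gene, had 3203 bp over 1506 bp of pieces. E2f2, an activating E2F gene, had 10803 bp. Myc had 4853 bp over pieces summing to 4856 bp, and its partner gene Max 2103 bp over 1506 bp. All of these gaps were 197 to 347 bp, against 197 to 447 bp at the restraining genes above.

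Lists of other lineages were mixed, and smaller shares of their genes had a treated peak than in the erythroid lists. Of 53 myeloid genes, 21 had any treated peak in the window, 1 had a fused peak (1.89%, 0.0478 to 10.1%) and 3 a fragmented one. The fused one was at Egr1, an immediate early factor gene, with 4153 bp and a gap of 647 bp. Of the stem, stromal, B cell and T cell lists none had a fragmented peak. None of 22 stem and progenitor genes and none of 16 stromal genes had a fused peak, which by the exact interval allows shares of up to 15.4% and 20.6%. Of 17 B cell genes, Cd79a, an antigen receptor subunit gene, had one of 2753 bp. Of 16 T cell genes, 3 had one, the neighbouring CD3 genes Cd3g, Cd3d and Cd3e, with the peaks outside these genes. Cd3d and Cd3e share a peak of 3453 bp. Of 18 megakaryocyte genes, 5 did (27.8%, 9.70 to 53.5%). Plek, the platelet signalling protein gene pleckstrin, had 3 fused peaks of 3403, 5653 and 10053 bp, and the chemokine genes Pf4 and Ppbp share a peak of 3553 bp over 2556 bp of pieces.

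Autophagy and organelle clearance genes had 7 of 26 with a fused peak (26.9%, 11.6 to 47.8%) and 1 with a fragmented one. In 4 of them a start-site gap was bridged, against 426 of 17492 genes with a promoter sequence (2.44%). Atg9a, the autophagy lipid scramblase gene, had 2 fused peaks of 3353 and 2753 bp, each with a gap of 197 bp. Ube2o, the ubiquitin ligase gene that remodels the reticulocyte proteome, had 8853 bp over pieces of 6203, 453 and 103 bp, with H3K4me1 over 8853 bp treated and 7362 bp untreated. The list was the one with the most bridged start-site gaps, though 4 genes is a small number.

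In the remaining lists the fused share among genes with a treated peak lay between 15% for interferon response and 26.7% for apoptosis, against 17.6% over all genes. The fragmented share lay between 5% for interferon response and 25% for housekeeping genes, against 7.25% over all genes. EPO and cytokine signalling had 8 of 39 with a fused and 7 with a fragmented peak, led by the feedback inhibitor gene Cish, with 4803 bp across 697 bp, and the adaptor genes Sh2b3, with 5303 bp, and Shc1, with 6753 bp. Apoptosis had 8 of 40 and 3, with Apaf1 at 2303 bp and Bax, the pore-forming effector gene, next to the Ftl1 peak of 5653 bp. Genes of PRC2, histone deacetylases and co-repressors had 6 of 41 and 3, and beside Kmt5c these included Sin3a, a scaffold gene of deacetylase complexes, with 3453 bp, and Kmt5a, the H4 lysine 20 monomethyltransferase gene, with 4503 bp. Glycolysis had 3 of 20 and 2, with Gapdh at 5703 bp and Pgam1 at 1703 bp. Interferon response genes had 3 of 25 and 1, at Isg15 with 4453 bp, at Ifi27 with 1353 bp and outside Irf9 with 1403 bp. Housekeeping genes had 6 of 28 and 7, with Ppia at 3653 bp and the chaperone gene Hspa8 at 4303 bp. Fragmented and fused peaks were similar in number in the EPO and housekeeping lists.

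**Figure D5:**
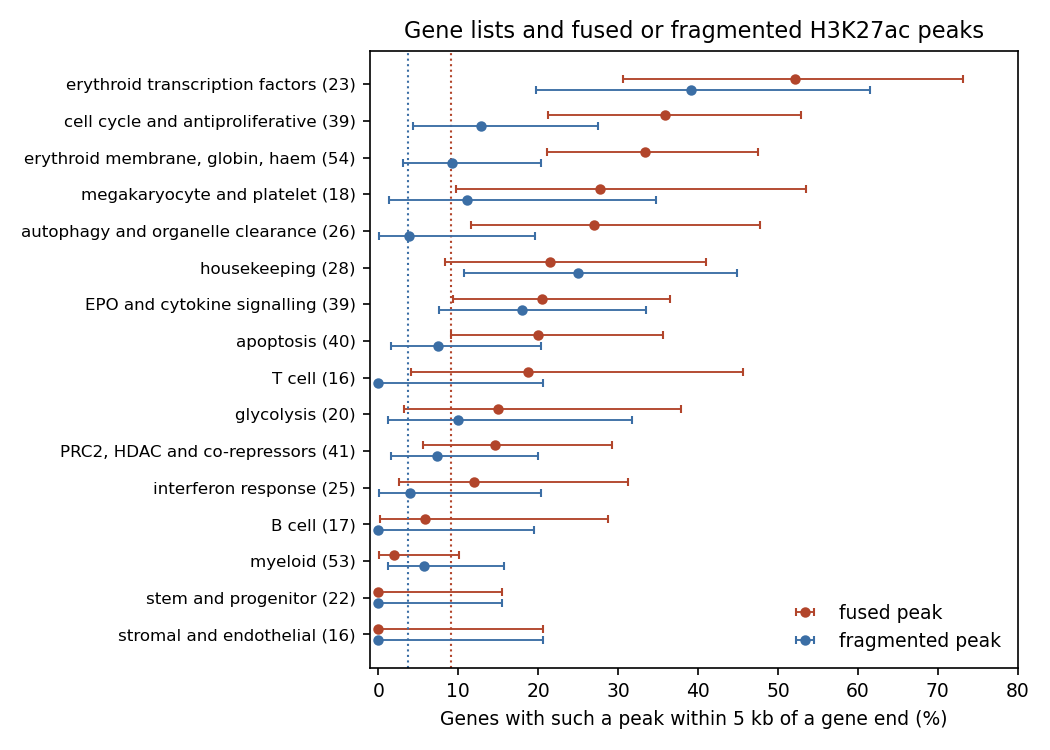
Percentage of the genes of each list (number of genes in brackets) with a fused (red) or fragmented (blue) peak within 5 kb of a gene end, with exact 95% intervals as bars and dotted lines at the shares over all protein-coding genes, 9.07% and 3.74%. Erythroid factors (52.2% fused, 39.1% fragmented), cell cycle genes (35.9% and 12.8%) and erythroid structural genes (33.3% and 9.26%) have the highest fused shares.

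Over all protein-coding genes, those with the longest bridged length within 5 kb of an end were Hemgn with 4097 bp, Kmt5c with 3594 bp, Fads3 with 3391 bp, Abcb9 with 3147 bp and Vsir with 3044 bp. Fads3, of the fatty acid desaturase family, had fused peaks of 6453 and 3103 bp, the first of which lay also within reach of Rab3il1, a guanine nucleotide exchange factor gene. Vsir, the gene of the immune checkpoint protein VISTA, had 4753 bp over 3 pieces summing to 1959 bp. Oaf followed with 2741 bp, the respiratory complex I gene Ndufa10 with 2591 bp, and Apeh and Mst1 share 1 peak with a gap of 2247 bp. None of these had a fragmented peak in the window.

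H3K4me1, which the rule did not use, lay over most of the bridged gaps in both conditions. Of the bp in all 2945 bridged gaps, 86.6% were under treated and 82.9% under untreated H3K4me1 peaks. The shares were lower in the shortest gaps, with 69.7% treated and 64.2% untreated at 197 bp, and reached 99.6% treated and 98.1% untreated at 547 to 997 bp. In fragmented peaks the gaps of 197 bp were covered more, at 89.6% treated and 86.6% untreated. So were untreated gaps of 197 bp that stayed apart, at 81.5% and 78.6%. From 247 bp on, gaps kept apart were covered less than bridged ones, at 247 bp 65.1% and 58.7% against 76.35% and 71.7%. Gaps of up to 497 bp that lost 1 flanking peak were at 94.2% and 92.1%, against 80.6% and 76.7% for bridged ones. High cover was therefore not particular to bridged gaps. No H3K4me1 peak of either list touched 442 of the bridged gaps, all of them at most 497 bp long. All 22 bridged gaps over 2 kb were fully covered by treated H3K4me1, and 18 of them by untreated H3K4me1, against 692 and 468 of 1484 gaps of that length that stayed apart.

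Over the whole of the fused peaks, H3K4me1 covered 87.7% of the length in the treated and 84.0% in the untreated list, a ratio of 1.04. It was longer in the treated list at 1055 fused peaks, shorter at 205 and equal at 1254. The ratio was 1.07 over 1-to-1 peaks and 1.03 over fragmented peaks, and with H3K4me1 lengths scaled to the same genome total that of the fused peaks was 0.983. A fused H3K4me1 peak lay over 43.4% of fused H3K27ac peaks (41.5 to 45.4%), over 33.3% of 1-to-1 peaks (32.6 to 34.1%) and over 38.2% of fragmented ones (35.4 to 41.1%). Wider peaks meet such features more readily. Among peaks of at least 4 kb the shares were 58.0% fused (54.2 to 61.8%), 49.2% 1-to-1 (45.8 to 52.6%) and 38.5% fragmented (33.6 to 43.6%). Among those of 2 to 4 kb they were 40.2%, 39.9% and 34.9%, the first 2 of which are alike within their intervals. At 1 to 2 kb they were 36.6%, 30.8% and 38.55%. Under 1 kb the fragmented share was the highest, with 27.9% fused (20.6 to 36.3%), 26.5% 1-to-1 and 56.2% fragmented (44.05 to 67.8%). The best-scoring H3K4me1 peak over a fused peak stood at a median percentile of 95.9 in the authors' treated list by their score, against 89.8 for 1-to-1 and 97.0 for fragmented peaks. At matched width the fused and 1-to-1 peaks were closer, at 94.8 and 92.9 for 2 to 4 kb and 98.6 and 97.8 for 4 kb or more.

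Within 1 kb of a gene end lay 45.5% of fused peaks (43.6 to 47.5%), 51.2% of 1-to-1 peaks (50.4 to 52.0%) and 36.9% of fragmented peaks (34.1 to 39.7%). Among peaks of 2 to 4 kb the shares were 51.5% fused, 62.5% 1-to-1 and 40.6% fragmented. Elsewhere in a gene lay 36.4% of fused peaks, 29.5% of 1-to-1 peaks and 43.7% of fragmented peaks, and between genes 18.0%, 19.3% and 19.4%. At 4 kb or more they were 48.8% fused, 57.3% 1-to-1 and 50% fragmented, so that fused peaks were less often at gene ends than 1-to-1 peaks in both classes, and above fragmented peaks in the narrower of these classes alone. On the chromosomes with more than 1 treated peak, the fused share ranged between 8.64% on chromosome 13 and 12.6% on chromosome 8. Precursors of 18 annotated miRNAs lay under fused peaks, of 98 under any treated peak, among them Mir484, with a fused peak of 2303 bp over 2 pieces.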

How the data were processed

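ChIP-seq peak lists of H3K27ac and H3K4me1 from 4 groups were used: each mark treated with doxycycline for 48 h and untreated. Titles of the samples gave the groups, and other samples of the series were not analysed here. Per the submitters' processing notes, bcl2fastq 2.17.1.14, BWA and build mm10 were used. Which program called peaks, with which settings, and how the H3K27ac replicates were joined is not given in the sources used here, and widths and gaps may depend on it. The deposited H3K27ac lists give positions and widths alone, with coordinates read as 1-based. The deposited H3K4me1 lists add the authors' score, of unstated scale, used to rank peaks within a list. A further deposited column lies below 0.01 and may be a p-value or q-value of the authors; it was not used.

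Overlaps and gaps were found in Python 3.11.15, with pandas 2.3.3 for tables, numpy 2.4.6 for arrays and scipy 1.17.1 for intervals. The fused count was equal in bedtools 2.31.1, and the code recovered the simulated fusions in data with known answers. Figures were drawn with matplotlib 3.10.9. Genes, start sites, promoters and miRNAs came from RefSeq tables on GRCm38.p6, with 21887 protein-coding genes, of which 17492 had a promoter sequence. Chromosome 18 was not used for start-site and motif values. The gene table gives both ends of each gene without strand. The symbol Ahsp had no match. The members and gene lists were chosen with earlier results of these data known. The start-site comparison and the CCAAT, GC-box and TATA letters were added after results were seen, as were the printed promoters, taken from list genes. Peaks were named if among the 5 with most pieces (ties by width), the 5 widest, the 5 with the longest bridged length or single gap, or 3 at the median. Genes were named if within 5 kb of these, if members of the erythroid, erythroid factor or cell cycle lists with a fused peak, or if among the 3 members of each other list or the 10 genes of all with the longest bridged length, and Spi1. Mir484 was named outside this rule, and 2 genes that the rule names are not reported here. Replicates could not be compared, so no test across samples was possible.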

Additional observations from a re-analysis of the deposited data

How the results depend on the processing

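No paired analysis was possible because each H3K27ac list stands for 2 replicates and each H3K4me1 list for 1, so leaving out a replicate was not run either. Of 63 alternatives, 30 stayed within the main value's interval or within 1.5 times its count, 32 moved and 1 reversed. The cause of these shifts was not tested. The 2514 fused peaks became 1479 with peaks of at least 500 bp, 297 and 101 with pieces within 500 bp and 1 kb merged first, 1669 with equal peak numbers and 516 in the wider 50% of each list. For the ratio to fragmented peaks of 2.18 the values in that order were 1.863, 1.571, 1.712, 1.455 and 2.745, with 2.509 where 50% of each piece had to lie inside and 1.938 with pieces within 200 bp merged, so fused peaks outnumbered fragmented ones in every alternative run. The H3K4me1 cover of bridged gaps was 90.59% treated and 87.35% untreated in gaps of at least 200 bp, and 99.69% and 96.67% in those of at least 500 bp. After both H3K4me1 lists were brought to equal total length, the treated over untreated ratio over fused peaks was 0.9829, below 1 where the unscaled ratio of 1.044 is above it. The gene end share was 41.53%, 48.57% and 57.2% with windows of 0, 2 and 5 kb. The erythroid share over that of all genes was 7.647 with pieces within 500 bp merged, a value that rests on a handful of erythroid genes.

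The start-site share of short bridged gaps was 8.715% and 21.1% with limits of 100 and 500 bp, 11.76% without gaps of the smallest length, 18.29% with peaks of at least 200 bp, 21.75% in the wider 50% and 21.18% with equal numbers. In fragmented peaks it was 1.842% and 4.972% with those limits and 1.699% without the smallest gaps, below the fused share in each. CCAAT was in 48.87% of promoters under fused peaks, against 46.29% within 5 kb, in 58.06% of promoters with a bridged gap without the smallest gaps, and in 77.22% of those with a gap kept apart with a limit of 500 bp. Depth behind the lists is unknown, and gaps of 197 bp, the shortest either list holds, make up a large part of the bridged gaps.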
